A study of Mus musculus with 2688 samples.

Results

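Microglia of the spinal cord were compared between 3-week-old and 16-week-old CD1 mice. The wells were chosen by their replicate label: 3 replicates of spinal cord at 3 weeks and 4 at 16 weeks, which are 7 of the 51 region samples of the series. After filtering on the number of detected genes and on mitochondrial reads they hold 340 of 2402 cells. The series measured single microglia of several brain regions and of spinal cord, in embryos and at the 2 postnatal ages. Both groups used here are normal mice of 1 strain, with no transgene and no treatment in the labels, and the series text states that the replicates of a region and age are mice. Cells had been stained for CD11b, CD45, Ly6C, Ly6G and CD206 after a Percoll gradient, sorted into 384-well plates with 1 cell per well, and turned into full-length cDNA libraries by SmartSeq2. Sex is not in the labels.

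Microglia are macrophages that live within the brain and spinal cord. They arise from the yolk sac, divide in the growing tissue and then persist with slow turnover, and they depend on CSF1 receptor signalling. A set of genes that includes P2ry12, Tmem119, Cx3cr1, Csf1r, Fcrls and Sparc marks them in healthy tissue and sets them apart from the macrophages of the meninges and blood vessels. In the mouse the third postnatal week closes the main wave of microglial expansion, whereas an animal of 16 weeks is a mature adult.

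The cells carried the microglial markers throughout. The summed level of 9 microglia genes ran from 60660 to 67940 CPM (read counts scaled to a common TMM library size) in the 3-week samples and from 57120 to 60050 CPM at 16 weeks. Genes of most other cells were lower by far. The highest sum was that of 5 B cell genes, 458.0 to 560.9 CPM at 3 weeks and 513.2 to 804.5 at 16 weeks, most of it Ighm, the immunoglobulin mu heavy chain, which was at 400.7, 423.8 and 485.1 CPM and at 686.8, 607.5, 630.6 and 486.6 (edgeR adjusted p = 0.849). For 9 genes of border macrophages the sum was 100.5 to 146.3 CPM at 3 weeks and 52.29 to 140.5 at 16 weeks, most of it Stab1, and Cbr2 and Ms4a7 were at 0 in every sample. Sums for neutrophils, T and NK cells, Schwann cells and erythroid cells did not pass 11.6 CPM in any sample, with Retnlg, Trac, Cd8a, Nkg7, Prx, Hba-a2 and Hbb-bt at 0 throughout. The 7 oligodendrocyte genes summed to 180.7 to 199.5 CPM at 3 weeks and 66.23 to 366.6 at 16 weeks, and the 6 astrocyte genes to 123.5 to 224.0 and 141.4 to 294.0, so both ranges overlapped between the ages. The 5 endothelial genes summed to 6.182 to 38.19 CPM at 3 weeks and 0.486 to 122.1 at 16 weeks, with Cldn5 at 0 throughout. Over the 14 marker lists, Fcrls in the microglia list was the 1 called gene, beside 6 of all 12001 genes tested (0.05%).

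The 2 ages were not sequenced alike. All 3-week spinal cord cells lay on 1 plate (P216, with cortex of 16 weeks) and all 16-week spinal cord cells on another (P218, with cerebellum of 16 weeks), so age and plate cannot be told apart within the spinal cord. The 3-week samples held 54 to 61 cells and 12744518 to 14811378 counts each, and the 16-week samples 32 to 47 cells and 6343182 to 8077594 counts. A cell of 3 weeks had a median of 2948 to 2999.5 detected genes, against 2259 to 2466.5 at 16 weeks, and the gap held after each cell was thinned to 45813 reads (2428 to 2516 against 1959 to 2107). Of the wells of 3-week replicate 1, 30 lie in the plate columns whose deposited counts needed a correction. P-values below measure only the spread between the samples of each fit.

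At a Benjamini-Hochberg adjusted p under 0.05 in edgeR's quasi-likelihood test, 6 of 12001 genes were called between the ages (0.05%), 2 higher and 4 lower at 16 weeks. Before adjustment 303 genes were higher and 311 lower at p under 0.05. When the 4 embryonic spinal cord samples entered the same fit, so that 3 ages shared 1 estimate of the spread, 31 of 14834 genes were called (0.209%), 1 higher and 30 lower. The genes that this larger fit adds are named below as chosen after their values were seen. The 6 genes are Fcrls, Sparc, Sgk1 and Ccnf, which fell, and Slc34a2 and Rn18s-rs5, which rose.

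**Figure D1:**
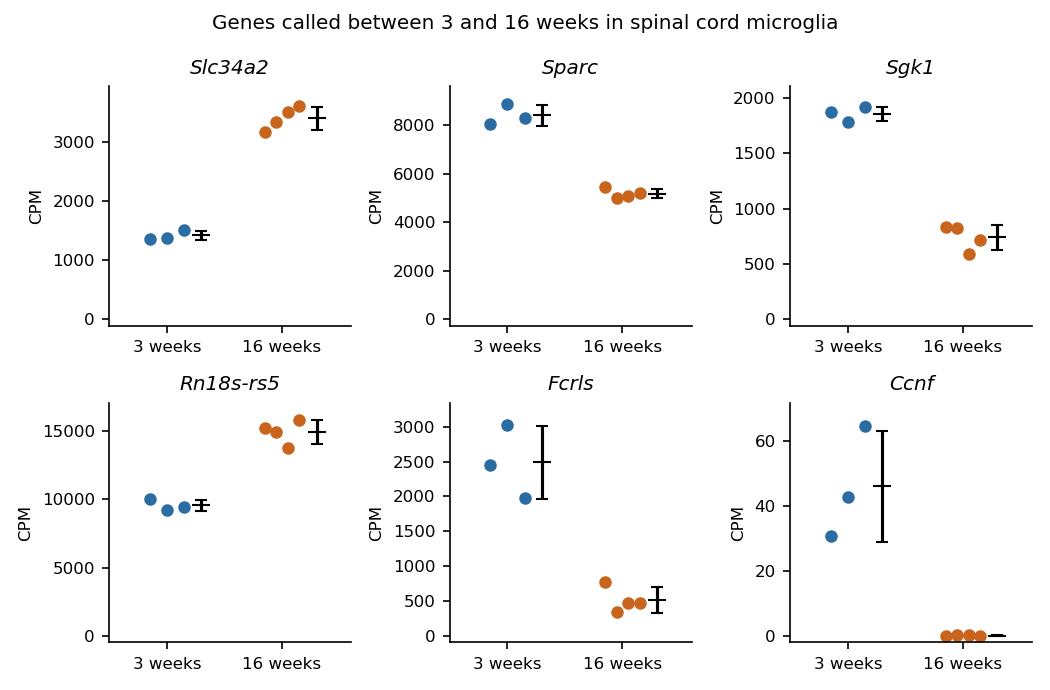
CPM (y axes) of the 6 called genes in each spinal cord sample, 3 at 3 weeks and 4 at 16 weeks, with the mean and SD beside the points. In all 6 panels the ages do not overlap; the smallest gap in proportion is that of Rn18s-rs5 (9992 against 13730 CPM).

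Fcrls encodes an Fc receptor-like scavenger protein of the microglial surface and occupies bases 87250758 to 87263738 of chromosome 3 in GRCm38. It stood at 2456, 3024 and 1982 CPM in the 3 samples of 3 weeks and at 777.1, 343.4, 473.9 and 465.5 CPM in the 4 of 16 weeks. Every sample of 16 weeks lay below every sample of 3 weeks, with replicate 1 the highest of the older group. The fall was 4.83-fold (log2 -2.27 ± 0.26, SE; edgeR adjusted p = 0.0239). Fewer cells held any read of it. At 45813 reads per cell, 91.4%, 91.5% and 96.3% of 3-week cells had a read, against 46.7%, 45.7%, 43.2% and 36.0% of 16-week cells. The mean share went from 93.1% ± 2.80 (SD, n = 3) to 42.9% ± 4.82 (n = 4). These shares come from the same counts that chose the gene and are given with no test. Without thinning the shares were 96.0% and 46.2%. In 16-week replicates 1 to 4 a single cell supplied 12.9%, 18.1%, 23.2% and 36.0% of the Fcrls reads, against 4.79%, 5.89% and 12.7% at 3 weeks. The 8 blank wells of the plates held 2 Fcrls reads in all.

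The other regions place this value. In a fit of all 35 postnatal samples Fcrls was lower at 16 weeks in each of the 5 regions, by 0.64 on the log2 scale in cortex, 0.73 in hippocampus, 1.07 in corpus callosum, 1.47 in cerebellum and 2.31 in spinal cord. The spinal cord change exceeded the mean of the other 4 by a log2 of -1.34 ± 0.35, which did not pass the adjustment over 19580 genes (edgeR p = 0.00061, adjusted p = 0.522). The 2 lowest group means of Fcrls were the 2 groups on plate P218, 497 ± 183 CPM for spinal cord and 1064 ± 318 for cerebellum, both of 16 weeks (SD, n = 4 each). On P216 cortex of 16 weeks had 3657 ± 1237 CPM, above the 2470 ± 502 of 3-week spinal cord. Whether the plate took part in the fall was not tested.

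**Figure D2:**
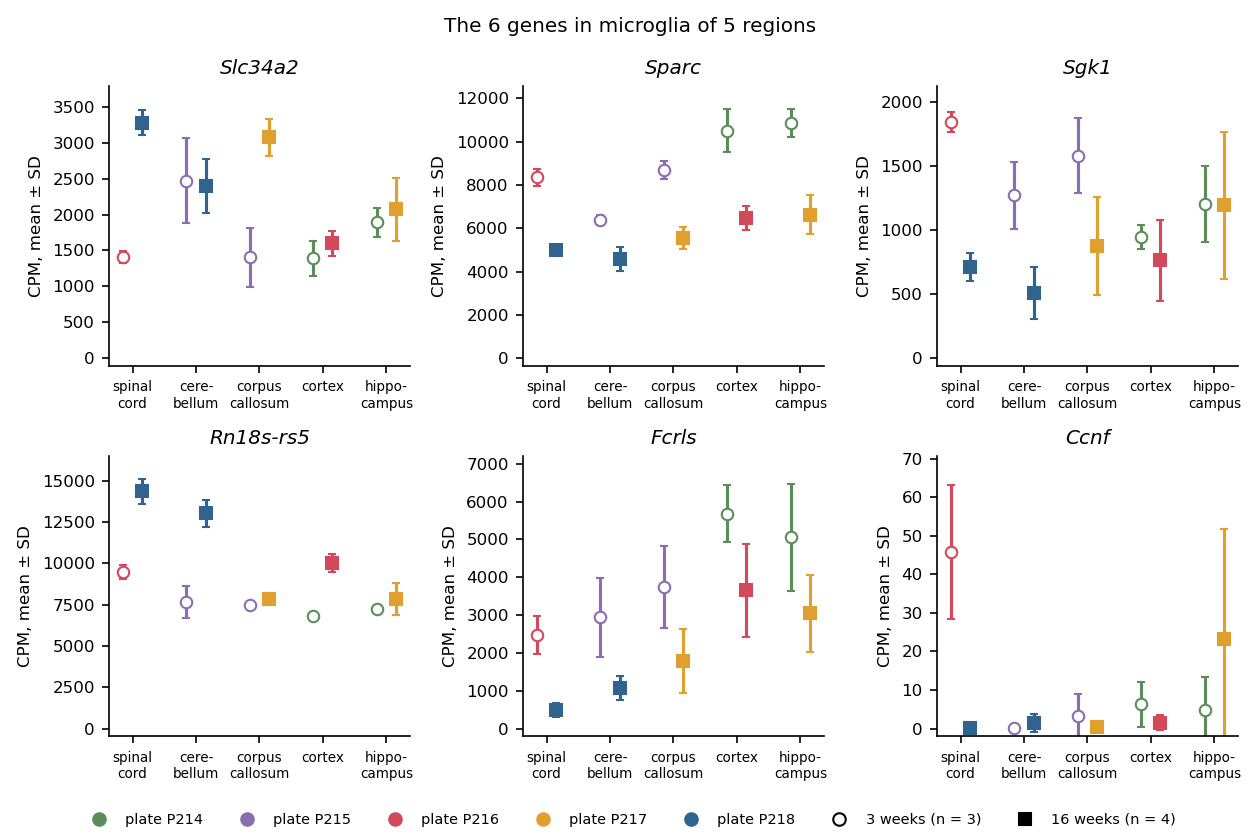
Mean CPM ± SD (y axes) of the 6 called genes in microglia of 5 regions at 3 weeks (open circles, n = 3) and 16 weeks (filled squares, n = 4), coloured by plate. Sparc and Fcrls were lower at 16 weeks in all 5 regions, and the highest Rn18s-rs5 means were both on plate P218.

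Sparc, a secreted matrix-associated glycoprotein that microglia make in quantity, was at 8056, 8882 and 8298 CPM at 3 weeks and at 5439, 5003, 5089 and 5199 CPM at 16 weeks. The groups were tight and apart. The fall was 1.62-fold (log2 -0.70 ± 0.07; edgeR adjusted p = 0.0185). A decrease of this size was common to the regions: -0.48 in cerebellum, -0.64 in corpus callosum, -0.69 in cortex, -0.71 in hippocampus and -0.74 in spinal cord on the log2 scale, each with an SE of 0.09. The spinal cord differed from the mean of the others by -0.11 ± 0.11. All 171 and 142 thinned cells held Sparc reads. Sparc lies on chromosome 11, from 55394500 to 55420080.

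Sgk1 encodes a serine/threonine kinase that is induced by glucocorticoids and serum. It had 1871, 1785 and 1915 CPM at 3 weeks against 833.5, 821.2, 589.5 and 715.1 at 16 weeks. No sample of the older group came near the younger ones, and the fall was 2.51-fold (log2 -1.33 ± 0.14; edgeR adjusted p = 0.0185). The share of thinned cells with a read was 96.6%, 93.2% and 96.3% at 3 weeks and 77.8%, 65.7%, 62.2% and 56.0% at 16 weeks, again with no test. The median thinned cell held 58.0 to 76.5 reads at 3 weeks, against 37, 24, 11 and 2 in the 4 older samples. In the last of these 1 cell carried 28.8% of the reads. None of the 8 blank wells had a read of Sgk1.

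In the other regions the log2 change of Sgk1 was -1.32 ± 0.32 in cerebellum and -0.85 ± 0.32 in corpus callosum, and -0.31 ± 0.32 and -0.01 ± 0.32 in cortex and hippocampus. The interaction came to -0.75 ± 0.36 (edgeR p = 0.0439, adjusted p = 0.846). On plate P216 itself cortex of 16 weeks was 1.26 ± 0.29 lower on the log2 scale than spinal cord of 3 weeks (adjusted p = 0.465), a comparison that changes age and region together and shares the 3-week samples with the one above. Sgk1 spans 21882184 to 21999903 of chromosome 10.

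Ccnf encodes cyclin F, the substrate-binding part of a ubiquitin ligase that accumulates in G2. It had 30.7, 42.8 and 64.6 CPM at 3 weeks, and 0, 0.156, 0.122 and 0 CPM at 16 weeks. In reads this is 1858 over 175 cells against 2 over 165 cells, a ratio of rates of 644 (95% counting interval 178 to 5325, exact and for counting error only). The fitted log2 change of -9.13 ± 1.12 (edgeR adjusted p = 0.0306) rests on those 2 reads and on the prior count. Few cells stood behind the 3-week level: 10 of 171 thinned cells had a read, and 1 cell held 88.3%, 44.3% and 82.9% of the Ccnf reads of replicates 1, 2 and 3. Other regions did not share 1 direction. From 3 to 16 weeks the Ccnf mean went from 4.93 to 23.2 CPM in hippocampus and from 0.030 to 1.35 in cerebellum. In corpus callosum it went from 3.31 to 0.314 CPM and in cortex from 6.31 to 1.59. Ccnf lies on the minus strand of chromosome 17, from 24223232 to 24251409.

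Slc34a2, a sodium-dependent phosphate cotransporter best known from lung and gut epithelium, had the smallest p of the comparison. Its level was 1368, 1386 and 1508 CPM at 3 weeks and 3173, 3340, 3508 and 3616 CPM at 16 weeks, a rise of 2.40-fold (log2 1.26 ± 0.10; edgeR adjusted p = 0.00261). The 2 groups were each within a narrow range and far from each other. Wells with no cell held the gene too. All 8 blank wells had reads of it, and in all 8 it was the gene with the most reads: 1577 to 2931 reads per blank on P216, which is 24.8% to 48.8% of their gene counts, and 1922 to 3173 on P218, or 84.5% to 93.7%. A cell held fewer, with medians of 310.0, 268.0 and 342.5 reads in the 3-week samples and 495.0, 439.0, 603.0 and 672.5 in those of 16 weeks.

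Across cells the correlation of log2 reads with log2 total counts was 0.39 for Slc34a2, 0.81 for Sparc and 0.93 for Rn18s-rs5 at 3 weeks (175 cells), and 0.60, 0.86 and 0.96 at 16 weeks (165 cells). These points share their libraries and their total, which contains the gene itself. Every cell had at least 1 read of Slc34a2 and of Rn18s-rs5, and 1 of the 165 cells of 16 weeks had none of Sparc. Blank wells of both plates carried more Slc34a2 reads than the median cell did, and the part that this background has in the rise was not tested. Of 6 phosphate transporter genes 4 were tested and Slc34a2 was the 1 called, beside 0.05% of all genes tested. Xpr1, the phosphate exporter, was at 30.1, 79.5 and 35.8 CPM and at 34.99, 107, 26.9 and 60.6 CPM. In other regions the log2 change of Slc34a2 was 1.13 ± 0.17 in corpus callosum, 0.20 ± 0.17 in cortex, 0.13 ± 0.17 in hippocampus and -0.05 ± 0.17 in cerebellum. The interaction for spinal cord was 0.86 ± 0.19 (adjusted p = 0.153). Slc34a2 spans 53038081 to 53071664 of chromosome 5.

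**Figure D3:**
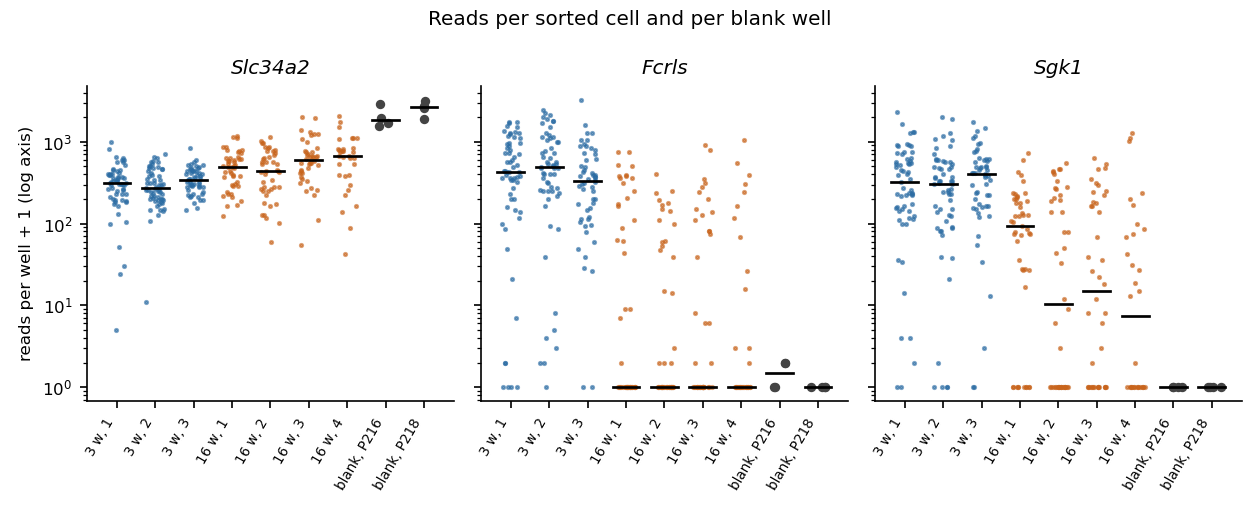
Reads per well plus 1 (y axis, log scale) of Slc34a2, Fcrls and Sgk1 in each kept cell of the 7 spinal cord samples and in the 4 blank wells of each of the 2 plates; horizontal lines are medians. For Slc34a2 the blank wells hold 1577 to 3173 reads, above the median of every sample although some cells reach into their range, and for Fcrls and Sgk1 they hold 0 or 1 read.

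Rn18s-rs5 is an 18S ribosomal RNA repeat, whose RNA has no poly(A) tail and reaches such libraries by internal priming. It stood at 9992, 9193 and 9471 CPM at 3 weeks and at 15200, 14930, 13730 and 15790 CPM at 16 weeks (log2 0.64 ± 0.07; edgeR adjusted p = 0.0185, and 0.180 with 3 ages). Per cell the medians of unscaled reads were closer, 2127.0, 1975.0 and 2210.0 against 2192.0, 2283.5, 2823.5 and 3380.5, and here replicate 1 of 16 weeks lay within the 3-week range. Blank wells of P216 held 163 to 473 reads of it and those of P218 0 to 7. By plate, the 2 groups on P218 had the highest means of the 10 postnatal groups, 14359 ± 751 CPM in spinal cord and 13032 ± 808 in cerebellum (SD, n = 4 each). The 2 groups on P216 followed with 10041 ± 547 in cortex of 16 weeks and 9492 ± 421 in spinal cord of 3 weeks. All 6 others lay between 6787 and 7854. The part of the plate in the spinal cord change was not tested. Reads of rRNA repeats can be shared between copies, so the gene row is uncertain.

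The genes of the G2 and M phases build the spindle and drive mitosis. Of 20 such genes 19 passed the filter on low counts and none was called with 7 samples. With 3 ages 10 of 20 were called lower, beside 31 calls among all 14834 genes (0.209%). In that fit, added after the data were seen, the embryonic samples also entered the filter and the estimate of the spread. The list was chosen with earlier results of these data known, so these 10 calls are no independent support. All 19 that passed with 7 samples had at least 10 reads in each 3-week sample, but 2 had as many in 3 or more of the 16-week samples. Most thus entered that test through the 3-week samples, and their direction was fixed by that. Over the 20 genes, 15 had every 16-week sample below every 3-week sample, against 5.02% of all genes tested. The summed level of the 20 genes was 273.5 to 435.5 CPM at 3 weeks and 18.38 to 57.10 at 16 weeks. Ccnf is not a member of this list.

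Mki67, which coats mitotic chromosomes and is the standard proliferation marker, had 51.9, 59.5 and 35.9 CPM at 3 weeks and 1.98, 0.156, 1.09 and 1.28 at 16 weeks (log2 -5.42 ± 0.89; edgeR adjusted p = 0.188, and 0.00532 with 3 ages). Top2a, the topoisomerase that untangles replicated chromosomes, had 15.1, 45.6 and 61.4 CPM and then 0.396, 1.09, 3.89 and 0.638 (adjusted p = 0.571, and 0.0206 with 3 ages). For both genes the ages did not overlap. Kif11, the spindle motor, and Hmmr had no read in any 16-week sample. With 3 reads over the group taken as the floor, the ages lay 112-fold (Kif11) and 91.4-fold (Hmmr) apart. That floor counts reads and not cells, so it gives no lower limit. At 3 weeks 5 (Kif11) and 7 (Hmmr) of 171 thinned cells had a read. Not every member was silent in adults. Ccna2, cyclin A2, was at 36.8, 48.1 and 29.8 CPM at 3 weeks and at 28.3, 0.156, 1.46 and 5.91 at 16 weeks, so that 1 adult sample almost reached the younger ones. Tpx2 reached 28.9 CPM in 16-week replicate 4, and Cdk1 24.2 and Bub1b 19.9 CPM in replicate 3, each within or above the 3-week range.

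**Figure D4:**
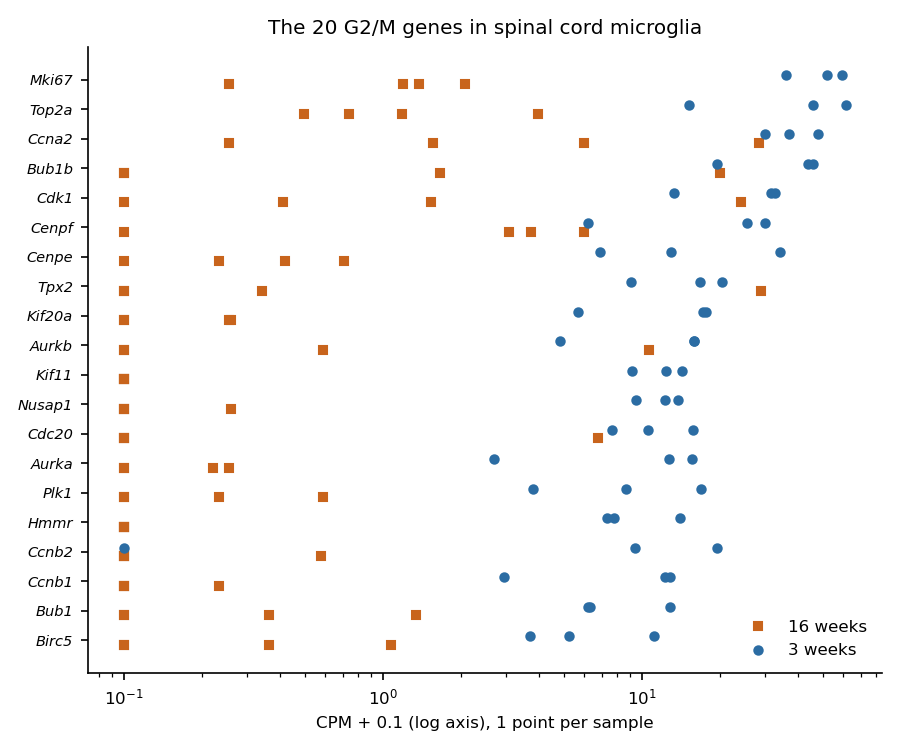
CPM plus 0.1 (x axis, log scale) of the 20 G2/M genes, 1 point per spinal cord sample (circles 3 weeks, squares 16 weeks), ordered by the 3-week mean. The ages overlap for 5 genes: Cdk1, Aurkb, Bub1b and Tpx2, each through a single 16-week sample, and Ccnb2, which a 3-week sample has at 0. The other 15 are apart, against 5.02% of all tested genes. Most tested members passed the filter through the 3-week samples, which fixed their direction.

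A small number of cells supplied these reads. A cell was scored as cycling when at least 5 of the 20 genes had a read at 45813 reads per cell. This held for 1 of 58, 2 of 59 and 2 of 54 cells in the 3-week samples and for none of 45, 35, 37 and 25 cells at 16 weeks. The mean share was 2.94% ± 1.064 (SD, n = 3) at 3 weeks and 0 at 16 weeks, where 0 of 142 cells allows a share of up to 2.11% (3 counts of the total, counting error only). The difference had exact two-sided permutation p = 0.0286, the smallest possible with 35 assignments, and it did not hold without thinning, when 1 cell of 16-week replicate 3 also met the criterion (p = 0.0857). The 5 cycling cells of 3 weeks contributed 78.8% of the 14972 G2/M reads of the 3-week samples, 87.9% of the Mki67 reads and 63.7% of the Ccnf reads. The G2/M and Mki67 shares are partly set by the scoring, which used these genes, whereas Ccnf was not scored. In replicate 1 the single cycling cell gave 45 of 453 Ccnf reads, and another cell most of the rest. Without the cycling cells Ccnf did not pass the filter on low counts and had no test. By the same score, 16-week hippocampus samples had 0, 0, 1 and 2 cycling cells, and 16-week cortex samples 1, 1, 0 and 1. Corpus callosum and cerebellum, the latter also on plate P218, had 0 in every 16-week sample. At 3 weeks cortex and corpus callosum had 0, 1 and 0 each, and hippocampus and cerebellum had 0. The parts of region and plate were not tested.

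Upstream sequences of 2 of these genes are shown because G2/M genes share CCAAT boxes, bound by NF-Y, and the cell cycle homology region TTTGAA. Both are printed from RefSeq promoters of GRCm38.p6, 250 bases ending at the base before the transcript start, 5′ to 3′ on the minus strand that carries the gene. Capitals mark CCAAT and TTTGAA or their reverse complements ATTGG and TTCAAA. The windows are chr17:24251410-24251659 for Ccnf and chr7:135716380-135716629 for Mki67.
Ccnf: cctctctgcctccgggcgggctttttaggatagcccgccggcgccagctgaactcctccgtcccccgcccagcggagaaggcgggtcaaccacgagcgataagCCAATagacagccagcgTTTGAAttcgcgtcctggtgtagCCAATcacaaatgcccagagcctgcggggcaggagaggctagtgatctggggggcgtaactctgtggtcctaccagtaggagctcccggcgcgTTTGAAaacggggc
Mki67: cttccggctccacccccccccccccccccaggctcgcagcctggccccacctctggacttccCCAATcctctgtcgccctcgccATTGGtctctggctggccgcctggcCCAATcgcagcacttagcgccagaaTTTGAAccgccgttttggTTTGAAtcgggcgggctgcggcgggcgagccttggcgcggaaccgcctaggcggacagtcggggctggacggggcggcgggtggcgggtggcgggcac
The Ccnf window holds 2 CCAAT and 2 TTTGAA matches, and the Mki67 window 3 and 2. Of the 16 G2/M list genes matched in the RefSeq table (Ccna2, Tpx2, Aurkb and Kif20a were not), 14 have CCAAT on either strand in such a window (87.5%), against 37.5% of 27025 genes. TTTGAA on either strand is in 6 of the 16 (37.5%), against 18.3% of genes. A match is a run of letters and not a shown binding site.

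Besides Ccnf, Fcrls, Sparc, Sgk1 and Slc34a2, the 3-age fit called 26 genes, all lower at 16 weeks, and they are named here after their values were seen. Of these, 10 are in the G2/M list, namely Nusap1, Mki67, Kif11, Aurka, Hmmr, Cenpe, Kif20a, Ccnb1, Top2a and Plk1, and Uhrf1 and Gins2 are in the S-phase list. The others are Ankle1, Cdca2, Pbk, Spc24, Ncapd2, Ube2c, Cdc25b, Ect2, Mpi, Apoc1, Cand2, Grn, Pacsin1 and Zfp61. In each 3-week sample 1 to 5 cells held 90% of the reads of each of the 10 G2/M genes. Over all 14834 genes the 3-age fit called 31 (0.209%). Rn18s-rs5 was not called in this fit (edgeR adjusted p = 0.180). Mpi, which interconverts fructose and mannose phosphates, was at 159, 177 and 114 CPM at 3 weeks and at 25.09, 25.85, 29.77 and 49.95 at 16 weeks. Its log2 change was -2.20 ± 0.37 (edgeR adjusted p = 0.205 with 7 samples and 0.00532 with 3 ages). A read was found in 42.5% ± 10.2 of thinned 3-week cells and 13.6% ± 1.88 of 16-week cells. In the 3-week samples 14 to 21 cells held 90% of the Mpi reads, and in the 16-week samples 3 to 4 cells did. Grn, the lysosomal growth factor progranulin, was at 2956, 3014 and 2919 CPM and then at 2066, 2284, 2112 and 1894 (log2 -0.50 ± 0.09; adjusted p = 0.286, and 0.0329 with 3 ages). Its groups were apart by more than their spread. Apoc1, an apolipoprotein, had 142 reads at 3 weeks, in 15 of 175 cells, and none at 16 weeks.

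Of 20 S-phase genes, which license and copy DNA, 18 were tested and none was called. Of the 18, 12 had at least 10 reads in 3 or more of the 16-week samples. Slbp, the histone stem-loop binding protein, had 82.0, 58.8 and 71.5 CPM at 3 weeks and 101, 46.4, 83.7 and 36.4 at 16 weeks, with overlapping groups. Mcm6 had 47.6, 35.6 and 24.2 CPM and 29.2, 23.4, 1.58 and 124. Mcm2, of the same helicase, was lower in every adult sample, at 19.7, 46.1 and 29.1 CPM and then at 3.70, 1.71, 0 and 0.160 (edgeR p = 0.0114, adjusted p = 0.769). The list thus held genes that overlapped between the ages and genes that did not.

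Among the 20 homeostatic microglia genes, a list chosen with earlier results of these data known, Sparc and Fcrls fell and none rose. Over all genes 6 of 12001 were called (0.05%). The other 18 homeostatic genes did not pass, and the median log2 change of the list was -0.18. Cst3, cystatin C and the most abundant of them, was at 35770, 33690 and 32410 CPM and at 46630, 33590, 32550 and 35000 CPM, with the groups overlapping. Csf1r, the receptor that microglia need to survive, was at 14260, 15710 and 15150 CPM and then at 12160, 12640, 12410 and 13270, below the 3-week samples in all 4 (log2 -0.25 ± 0.06; edgeR p = 0.0031, adjusted p = 0.571). P2ry12, a purinergic receptor that steers processes to injury, ran from 9157 to 11310 CPM at 3 weeks and from 7727 to 9824 at 16 weeks, and these ranges overlapped. Of 20 Fc receptor and paired immunoglobulin-like receptor genes Fcrls alone was called (0.05% over all genes tested), and the list median was -0.03. Fcer1g, the shared signalling chain, was at 592, 464 and 442 CPM and at 658, 656, 732 and 623, while Fcgr1 was at 1582, 1177 and 1205 and at 1084, 983, 1034 and 930 (adjusted p = 0.855 and 0.849).

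Antigen presentation, complement and the lysosome gave no called gene in the 7-sample fit. All 15 MHC class I genes were tested and 12 had a higher fitted level at 16 weeks, as had 53.0% of all genes tested. The list median was 0.27. H2-D1, a classical class I heavy chain, had 591, 714 and 395 CPM at 3 weeks and 891, 1157, 1089 and 1128 at 16 weeks, so all adult samples lay above all younger ones (log2 0.91 ± 0.21; edgeR adjusted p = 0.571). H2-K1 had 290.2, 347.7 and 213.2 CPM and 383.3, 538.4, 451.5 and 384.5. B2m, their light chain, was at 2133, 1644 and 1742 and at 2148, 2015, 1756 and 1853, with overlap. For class II, 9 of 10 genes were tested with a median of -0.28. Cd74, the invariant chain, had 173, 163 and 60.9 CPM at 3 weeks and 12.3, 23.8, 96.2 and 40.7 at 16 weeks.

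Of 12 complement genes 10 were tested, with a median of 0.14. C1qa, a chain of the initiating C1q complex, was at 3171, 2671 and 3015 CPM and then at 4110, 3915, 3805 and 3648, higher in all 4 adult samples (log2 0.39 ± 0.09; edgeR adjusted p = 0.571). C1qb and C1qc overlapped between the ages, with log2 changes of 0.23 ± 0.11 and 0.26 ± 0.11. Itgam, the CD11b chain of complement receptor 3 and a marker of the sort, was at 1380, 1369 and 1239 and at 874, 1107, 961 and 1029. Among 20 lysosome genes the median was 0.01. Ctsd, cathepsin D, had 9222, 11140 and 10460 CPM and 8611, 7846, 7246 and 6067 (log2 -0.47 ± 0.12; adjusted p = 0.571), and Lgmn, legumain, had 8486 to 9696 and 8588 to 9638.

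Genes of phagocytic and disease-associated microglia had 20 of 22 members tested, a median of -0.04 and no call. Apoe, the lipid carrier of this list and of the lipid transport list, was at 2352, 4214 and 2550 CPM at 3 weeks and at 56.4, 389, 1521 and 139 at 16 weeks. The ages did not overlap, but the adult samples spanned a wide range (log2 -2.53 ± 0.89; edgeR p = 0.0192, adjusted p = 0.849). Thinned cells with an Apoe read went from 72.4%, 86.4% and 68.5% to 11.1%, 25.7%, 32.4% and 32.0%, and 2 to 6 cells held 90% of the reads in each adult sample. On plate P216 cortex of 16 weeks was 2.31 ± 0.24 lower on the log2 scale than spinal cord of 3 weeks (adjusted p = 0.0536). Trem2, the lipid-sensing receptor, was at 1470, 1530 and 1636 CPM and 1913, 1543, 1600 and 1043 CPM. The 13 tested lipid transport genes had a median of -0.12, the 16 cholesterol synthesis genes one of -0.12, and neither list had a call in the 7-sample fit.

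**Figure D5:**
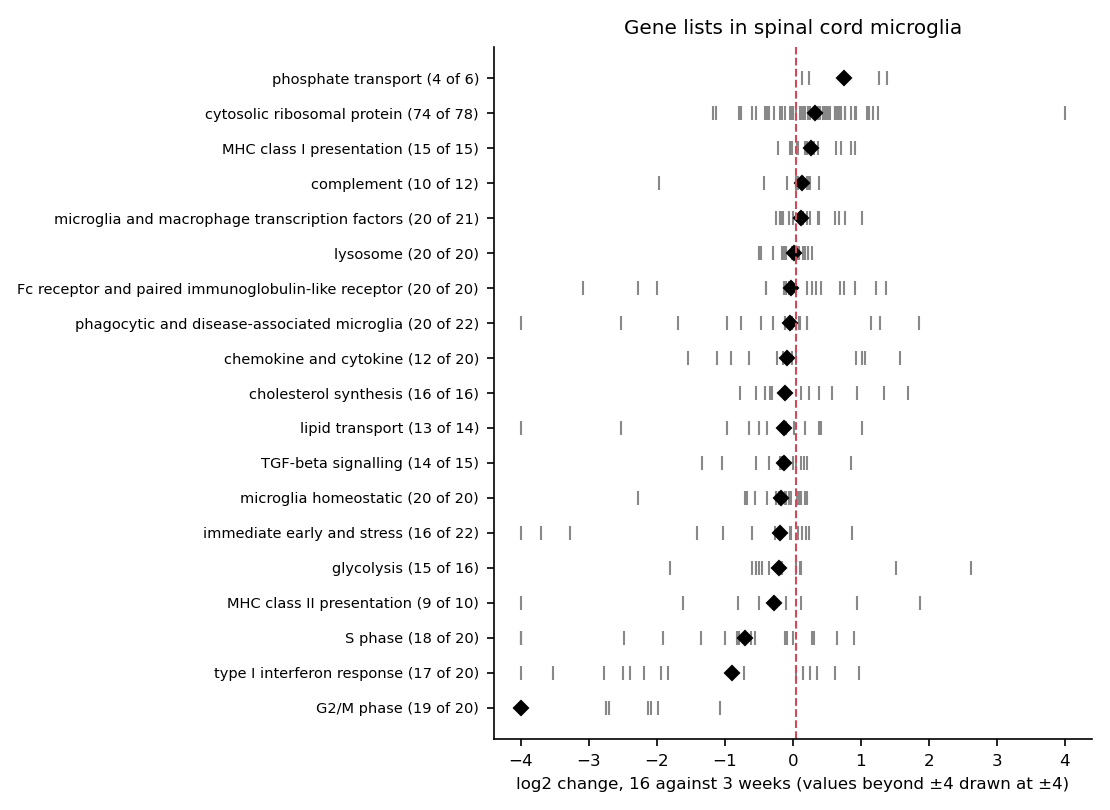
Log2 change at 16 against 3 weeks (x axis) of each tested member (ticks) and list median (diamonds) for 19 gene lists, with tested and total members in brackets; the dashed line is the median of all 12001 genes (0.05). The G2/M median is drawn at the edge of the axis, and most of its members passed the filter through the 3-week samples alone; 15 of the other lists lie between -0.28 and 0.32.

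The remaining lists had no called member in the 7-sample fit. Of 20 interferon response genes 17 were tested, 9 of them with at least 10 reads in 3 or more of the 16-week samples, and Rnf213, Stat2 and Ddx58, the members with the highest mean level, each overlapped between the ages. Immediate early and stress genes had a median of -0.18, over 16 of 22. Egr1 was at 61.5, 8.91 and 43.9 CPM and then at 1.19, 0, 0 and 0, whereas Btg2, Zfp36, Klf6 and Junb, the 4 most abundant, overlapped. Chemokine and cytokine genes had a median of -0.08, with Il1a at 340, 308 and 206 CPM and at 145, 205, 146 and 110 (edgeR adjusted p = 0.696). The TGF-beta list had a median of -0.12. Its receptor Tgfbr1 was at 1194, 1504 and 1401 CPM and at 1251, 1390, 1483 and 1337, and Itgav, an integrin that activates the ligand, was at 228, 175 and 208 and at 114, 119, 75.3 and 89.1. Transcription factors of the lineage had a median of 0.12, and Mef2c, Mef2a, Irf5 and Irf8 overlapped. Glycolysis had a median of -0.20. Cytosolic ribosomal proteins had one of 0.32, with 54 of 74 above 0 and 6 at an unadjusted p under 0.05, all of them higher. Over all genes tested 53.0% were above 0 and 2.52% were higher at that p. Rps9 was at 182, 166 and 188 CPM and at 251, 269, 255 and 255.

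Genes next in order of p are given as values. On the higher side, Pdp1, a pyruvate dehydrogenase phosphatase, was at 4.274, 6.403 and 8.002 CPM at 3 weeks and at 91.0, 77.1, 60.6 and 69.4 at 16 weeks, far apart (log2 3.58 ± 0.49; edgeR adjusted p = 0.0625). Its reads came from few cells: in 16-week replicate 3 a single cell held 97.2% of them. Hcar2, a receptor for hydroxybutyrate and niacin, was at 57.3, 91.2 and 70.6 CPM and at 313, 302, 368 and 177 (adjusted p = 0.138). Naalad2 was at 65.5, 20.8 and 32.5 CPM and at 268.2, 190.9, 216.9 and 155.4, and the share of thinned cells with a read went from 7.04% ± 1.80 to 34.8% ± 4.33. Tnfsf13b, the B cell survival factor BAFF, was at 47.7, 46.1 and 30.0 and at 231, 102, 157 and 171. Srgn, the granule proteoglycan serglycin, was at 71.6, 83.5 and 56.6 CPM and at 226, 171, 281 and 171 (log2 1.59 ± 0.29; adjusted p = 0.282). Hcar2, Naalad2, Srgn and Tnfsf13b had positive log2 changes in all 5 regions, for Srgn 1.51 to 3.54.

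Also in this order stood 3 predicted genes, Gm10800, Gm10717 and Gm21738, whose reads may be shared with repeat copies. Gm10800 was at 542, 372 and 352 CPM and at 1261, 4112, 1836 and 2562. Shallow cells, with counts below the median of their own sample divided by 3, supplied 80.4%, 94.3%, 87.2% and 93.4% of its reads in the adult samples, from 3, 9, 7 and 8 cells. Without those cells its log2 change turned from 2.53 to -0.61, and those of Gm10717 and Gm21738 turned to -0.31 and -0.67.

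On the lower side, after Mki67 and Mpi, stood Serpinf1, which encodes the secreted factor PEDF, at 326, 434 and 803 CPM and at 191, 164, 185 and 142 (edgeR adjusted p = 0.282). Sla, an adaptor that tunes receptor signalling, was at 1160, 1324 and 1472 and at 758, 956, 705 and 802. Both were lower at 16 weeks in all 5 regions, as were Grn and Mpi. Tmem229a went from 671 reads to 1, Zfp61 from 1472 to 7 and Pbk, a mitotic kinase, from 659 to 0. The Pbk reads came from 5 of 175 cells of 3 weeks. Of the Tmem229a reads in 3-week replicates 1, 2 and 3, a single cell gave 73.2%, 100% and 100%.

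Genes called between the ages in other regions had varied values in spinal cord. Malat1, a nuclear noncoding RNA, was at 3934, 3774 and 3758 CPM and at 4537, 4907, 5199 and 4449, all adult samples above all younger ones (log2 0.32 ± 0.09; edgeR adjusted p = 0.571). Its change was 0.52 smaller than the mean of the other regions on the log2 scale (SE 0.13, adjusted p = 0.338). For Cst3 the spinal cord change exceeded theirs by 0.54 ± 0.10 (edgeR adjusted p = 0.120). Lag3, an immune checkpoint receptor, had 388, 359 and 495 CPM and 235, 450, 119 and 67.2, and Serpine2, a protease inhibitor, 453, 590 and 524 and 332, 502, 257 and 103, both with overlap. Mrc1, which encodes the CD206 antigen used in the sort, had 0, 0.0736 and 5.73 CPM at 3 weeks and 11.88, 0, 0.243 and 1.596 at 16 weeks.

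Over all genes no difference between the spinal cord change and the mean change of the other regions passed: 0 of 19580 genes in edgeR's quasi-likelihood test (0%), with 1132 at an unadjusted p under 0.05, while DESeq2 called 357. In the comparison on plate P216, cortex of 16 weeks against spinal cord of 3 weeks, 0 of 12683 genes were called (0%), with 675 at an unadjusted p under 0.05 and 130 by DESeq2. Both comparisons use the 3-week spinal cord samples of the main one. For Slc34a2 that plate-matched difference was 0.20 ± 0.12 on the log2 scale, for Rn18s-rs5 0.10 ± 0.07, for Fcrls 0.58 ± 0.25, for Sparc -0.35 ± 0.09 and for Sgk1 -1.26 ± 0.29.

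The calls held to different degrees. Leaving out 1 of the 7 samples at a time kept Slc34a2 in 6 of 7 fits, Sgk1 in 2, Sparc, Rn18s-rs5 and Fcrls in 1 each and Ccnf in none, and without 3-week replicate 1 no gene was called. Directions held in all: across those fits and 12 other settings the log2 change of Fcrls lay between -2.54 and -2.12, that of Sparc between -0.77 and -0.63 and that of Sgk1 between -1.40 and -1.12. On the counts as deposited, without the correction of plate columns 1 and 2, no gene was called. With the replicate number as a block no gene was called either, Slc34a2 included. With cells thinned to 45813 reads, and in the fit of all 35 postnatal samples, Sgk1 and Ccnf were not called. Ccnf was also not called without shallow cells.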

How the data were processed

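The authors deposited raw read counts per gene for 2688 wells on 7 plates, of which 28 were blank. Reads were aligned with STAR 2.5.2b to GRCm38 and counted with featureCounts 1.6.2, per the submitters' processing notes; strand handling is not given in the sources used here. In plate columns 1 and 2 the deposited counts of a well were at least the sum over the later wells of its row whose column numbers begin with the same digit, for every gene, so that sum was subtracted (224 wells, no value below 0 afterwards). The 92 spike-in rows stayed out. Wells with at least 500 genes and at most 20% mitochondrial counts were summed per replicate label. Sums were tested with edgeR 4.0.16 (TMM, filterByExpr, robust quasi-likelihood, Benjamini-Hochberg 0.05) in R 4.3.3, with DESeq2 1.42.0 as an alternative; the share of cycling cells used an exact two-sided permutation test over 35 assignments. The fit of 3 ages was added after seeing the data. Self-tests ran on simulated data. Python 3.11.15, numpy 2.4.6 and pandas 2.3.3 did the rest. Named genes are all called genes, the next 8 by p in each direction, 7 genes called in other regions, and the called and most abundant members of each list. Members and lists were chosen with earlier results of these data known. The labels do not tie replicate numbers to mice. Intervals cover counting error only, since reads carry no molecular identifiers.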

Additional observations from a re-analysis of the deposited data

Results flagged for a closer look

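Of 35 groups of 4 samples examined, 2 had a single sample far from the other 3, and chance flags about 1 in 20 groups. Zfp61, a zinc finger gene, stood at 0.958 CPM in 16-week replicate 4 against 0, 0.156 and 0 in the others. Mrc1 stood at 11.9 CPM in 16-week replicate 1 against 0, 0.243 and 1.596.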

How the results depend on the processing

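The 6 calls between the ages became 0 on the counts as deposited and 4 with thinned cells (2 higher, 2 lower). They became 110 with DESeq2 (54 higher, 56 lower) and 46 with no filter on low counts (21 higher, 25 lower). With 3 ages in the fit they became 31, and with 1 sample left out 0 to 4, 0 without 3-week replicate 1. For the spinal cord change against the other regions, 0 calls became 3 as deposited, 3 with thinned cells, 357 with DESeq2, 34 with no filter and 0 to 3 with 1 sample left out (3 without 16-week replicate 3). For cortex of 16 weeks against spinal cord of 3 weeks, 0 became 3 without plate columns 1 and 2, 4 with thinned cells, 130 with DESeq2, 83 with no filter and 0 to 1 with 1 sample left out (1 without cortex replicate 3). With the replicate block these 3 counts were 0, 8 and 1. Same-numbered samples of different regions had a median correlation of 0.021 (-0.003 to 0.044) at 3 weeks and 0.035 (-0.005 to 0.062) at 16 weeks. For differently numbered samples it was -0.013 (-0.038 to 0.027) and -0.011 (-0.044 to 0.023). Whether the numbers pair samples across regions was not tested, and fits without the block take all samples as unpaired. The share of cycling cells, spinal cord 16 weeks against 3 weeks, differed by -2.94 percentage points, which became -1.94 with at least 3 genes (exact p = 0.229), -2.85 without thinning (exact p = 0.0857), -2.37 without plate columns 1 and 2 (exact p = 0.143) and -3.55 to -2.56 with 1 sample left out, where p cannot go below 0.0667 or 0.1. Log2 changes turned to -0.61 for Gm10800, -0.31 for Gm10717 and -0.67 for Gm21738 without shallow cells, and to -0.92 for Mrc1 with the replicate block. With 1 sample left out the log2 change of Cst3, 16 against 3 weeks, ran from -0.0092 (without 16-week replicate 1) to 0.1852 (without 16-week replicate 3). The cause of these changes was not tested, and leaving out 1 sample also lowers the sample number.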
